A study of Homo sapiens with 16 samples.

Results

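The ERK feedback genes described here are SPRY1, SPRY2 and SPRY4 (Sprouty proteins), SPRED1 and SPRED2 (Sprouty-related proteins), DUSP4, DUSP5 and DUSP6 (dual-specificity phosphatases) and ETV4 and ETV5 (ETS transcription factors). They were taken by symbol, and all 10 were present among the 25728 symbols of the count table. Of the 10, 9 had enough counts to be tested with 11863 genes in all, and DUSP5 did not. When a growth factor receptor activates RAS, the kinases RAF, MEK and ERK are switched on in turn, and ERK then induces genes whose products dampen the same cascade. Sprouty and SPRED proteins act on the signal between the receptor and RAF, and DUSP proteins remove the activating phosphates from ERK and related kinases. ETV4 and ETV5, members of the PEA3 group of ETS factors, are among the transcription factors induced with them, and in neuroblastoma the cascade can be driven by mutated ALK, a receptor tyrosine kinase.

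RNA was sequenced from Kelly and LAN-1, established human neuroblastoma lines that carry an amplified MYCN gene. Cells received GSK126 at 2 uM, an inhibitor of EZH2, the enzyme of the PRC2 complex that methylates histone H3 at lysine 27, or DMSO, the solvent control. The 8 groups were GSK126 for 5 days, DMSO for 5 days, GSK126 for 2 days and DMSO for 2 days in Kelly, and the same 4 in LAN-1, with 2 libraries each. Nothing in the labels says that the duplicates were separate cultures, so each p-value measures the spread between these libraries, which may be technical.

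Library totals ran from 912095 to 1666190 counts, and the smallest was replicate 2 of LAN-1 with GSK126 for 5 days. EZH2 itself differed by -0.28 ± 0.11 on the log2 scale between GSK126 and DMSO in Kelly at day 5 (estimate ± SE, edgeR adjusted p = 0.149) and by -0.31 ± 0.14 in LAN-1 at day 5 (adjusted p = 0.211). Averaged over lines and days it was called lower, at -0.27 ± 0.06 (adjusted p = 0.00155). MYCN differed by -0.39 ± 0.08 in Kelly at day 5 (adjusted p = 1.81e-04) and by 0.14 ± 0.08 in LAN-1 (adjusted p = 0.362), and this difference between the lines was called (-0.53 ± 0.11, adjusted p = 0.00118). All 10 neuroblastoma identity markers summed here, such as HAND2, were detected in every group. Levels below are CPM, the count per 1000000 counts of the TMM-scaled library, and a gene was called where the edgeR p, adjusted by Benjamini-Hochberg over all 11863 genes, was under 0.05.

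With GSK126 for 5 days, SPRY4 and DUSP6 rose in Kelly, and DUSP4 and SPRED2 rose in LAN-1, while none of the 9 was called lower in either line. These were 2 of 9 genes in Kelly, where 3.30% of all tested genes were called higher, 1.60% lower and 4.90% in either direction, and 2 of 9 in LAN-1, where 2.45% were called higher, 1.21% lower and 3.66% in either direction. The median log2 change over the 9 was 0.28 in Kelly and 0.48 in LAN-1, against 0.0084 and 0 over all tested genes. The LAN-1 median was the estimate of SPRED2, a called gene. Among the larger LAN-1 estimates, those of SPRY4, ETV5 and DUSP6 rested on 2, 1 and 9 summed DMSO counts. At day 2 edgeR called 0 of 9 in either line, with 0.177% of all genes called in Kelly and 0.152% in LAN-1. At an unadjusted p under 0.05 there were 0 in Kelly and 1 in LAN-1 at day 2, beside 7.48% and 6.23% of all tested genes, and DESeq2 also called 0 in both. Summed over the 10 genes, Kelly held 312.3 and 339.1 CPM with GSK126 for 5 days, against 251.1 and 255.3 CPM with DMSO. LAN-1 held 255.3 and 292.0 CPM with GSK126 for 5 days, against 208.9 and 189.1 CPM with DMSO. At day 2 the sums were 292.6 and 279.5 CPM with GSK126 and 276.7 and 280.1 CPM with DMSO in Kelly, and 252.2 and 242.1 CPM with GSK126 and 223.5 and 195.6 CPM with DMSO in LAN-1. The sums overlapped between treatments in Kelly at day 2 and did not overlap in Kelly at day 5 or in LAN-1 on either day. The LAN-1 gap at day 5 lay mostly in 2 called genes. These were SPRED2 (means of 137.4 CPM with GSK126 and 95.9 CPM with DMSO) and DUSP4 (52.6 and 25.9 CPM). Both LAN-1 calls rest on the group whose duplicates agreed least, GSK126 for 5 days in LAN-1. Its chi-square per gene between duplicates, relative to counting error, was 2.04. It was 1.81 in Kelly with DMSO for 2 days and 1.11 to 1.30 in the remaining groups. The edgeR fit shared its estimate of the spread over all 8 groups, so it may understate the spread in that LAN-1 group.

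**Figure D1:**
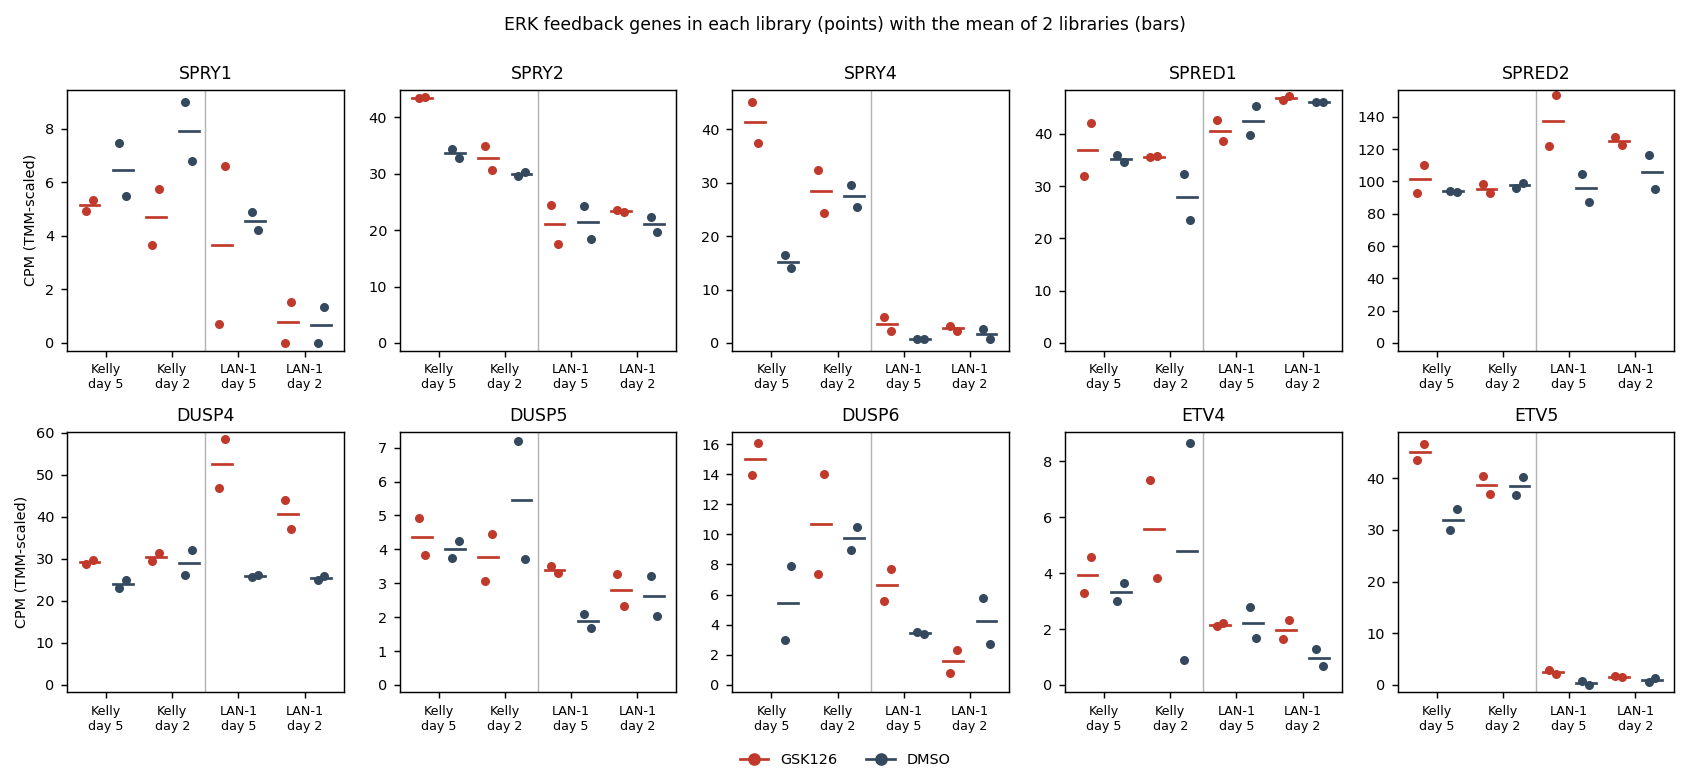
Level of each gene in CPM (vertical axis, linear, TMM-scaled) in each library (points) by line and day, with GSK126 in red and DMSO in dark blue and a bar at the mean of 2 libraries. In Kelly at day 5 SPRY4 stood at 45.1 and 37.4 CPM with GSK126 against 16.4 and 14.0 CPM with DMSO, and in LAN-1 at day 5 DUSP4 stood at 46.9 and 58.4 CPM with GSK126 against 25.8 and 26.1 CPM with DMSO.

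In bulk RNA, fewer or more cells of a kind cannot be told apart from less or more RNA per cell. In Kelly at day 5 the 10 neuroblastoma identity markers summed to 4827 to 5120 CPM with GSK126 and 7051 to 7204 CPM with DMSO. There, 6 of 7 fibroblast markers were detected with GSK126, summing to 309.3 to 318.1 CPM, and 5 of 7 with DMSO, summing to 150.2 to 163.7 CPM, with COL1A2 at 0 in both groups. Schwann cell markers summed to 14.5 to 15.6 CPM with GSK126 (5 of 7 detected) and 4.26 to 6.73 CPM with DMSO (4 of 7 detected), and S100B and CDH19 were at 0 in both. The neuroblastoma markers in LAN-1 at day 5 summed to 2446 to 2726 CPM with GSK126 and 2415 to 2554 CPM with DMSO. The fibroblast markers there summed to 97.2 to 121.2 CPM with GSK126 and 80.1 to 83.2 CPM with DMSO, and the Schwann cell markers to 1.40 to 5.51 CPM with GSK126 and 0.840 to 3.48 CPM with DMSO. The part of these shifts in the results below was not tested.

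SPRY4 showed the clearest response among the Sprouty genes, in Kelly at day 5. It encodes an inhibitor of receptor tyrosine kinase signalling upstream of RAF and lies on chromosome 5 (GRCh37 chr5:141689992-141706020, minus strand). SPRY4 was the member with the smallest adjusted p in Kelly. Promoters of the genes called in a GSK126 comparison within a line are printed here and below, except for DUSP4, which had none among the entries used. RefSeq promoter entries (GRCh38.p14, 250 bases before to 50 after the start) matched 6 of the 10 genes with 10 entries. The SPRY4 window is chr5:142324198-142324497 on the minus strand, with capitals for GGAA, the core letters of ETS sites, or TTCC, the same letters on the other strand:
SPRY4: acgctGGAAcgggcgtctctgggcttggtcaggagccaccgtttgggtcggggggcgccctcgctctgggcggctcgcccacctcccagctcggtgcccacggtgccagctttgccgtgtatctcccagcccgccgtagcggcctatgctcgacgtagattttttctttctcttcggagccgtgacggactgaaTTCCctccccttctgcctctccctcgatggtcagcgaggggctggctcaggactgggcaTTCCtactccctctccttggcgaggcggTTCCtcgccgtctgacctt
The window held GGAA 4 times over both strands, and 95.1% of 15843 promoters of the same length held it at least once. The longer ETS form CCGGAA was in 22.9% of promoters and was not in this window. It held 26 CG pairs, against a median of 22 over all promoters.

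In Kelly, SPRY4 had 45.1 and 37.4 CPM with GSK126 for 5 days, against 16.4 and 14.0 CPM with DMSO. The day 2 levels were 32.4 and 24.2 CPM with GSK126 and 29.6 and 25.3 CPM with DMSO. Both day 5 GSK126 libraries stood above every other Kelly library, both day 5 DMSO libraries stood below every other, and the treatments overlapped at day 2. The log2 change at day 5 was 1.44 ± 0.26 (edgeR adjusted p = 2.50e-05), and at day 2 it was 0.07 ± 0.24 (adjusted p = 0.984). It was called without each of the 16 libraries in turn, with changes of 1.31 to 1.56 and a highest adjusted p of 0.0104. The effect at day 5 exceeded that at day 2 by 1.38 ± 0.36, which missed the threshold (adjusted p = 0.0552). The adjusted p of that difference was 0.0368 without LAN-1 GSK126 day 5 replicate 1 and 0.0360 without replicate 2 of that group. With replicate number as a block it was 0.0467, with a change of 1.39. In DMSO alone, SPRY4 in Kelly differed by -0.84 ± 0.28 between day 5 and day 2 (unadjusted p = 0.00335, adjusted p = 0.247).

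SPRY4 was near the limit of detection in LAN-1. It had 7 and 2 counts (4.90 and 2.20 CPM) with GSK126 for 5 days, against 1 and 1 counts (0.696 and 0.840 CPM) with DMSO. The libraries did not overlap, and the ratio of summed counts was 5.06 with an exact 95% counting interval of 1.05 to 48.1 (edgeR adjusted p = 0.189). At day 2 it had 3.26 and 2.32 CPM with GSK126 and 2.56 and 0.679 CPM with DMSO, which overlapped. The fitted day 5 effect in Kelly minus that in LAN-1 was -0.77 ± 0.95 (adjusted p = 0.789), it was 0.11 with a prior count of 2, and its 95% interval ran from -2.64 to 1.11.

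SPRY1 and SPRY2, which act on the same step, were not called in any GSK126 comparison. SPRY2 (chr13:80910111-80915261 on GRCh37, minus strand) had 43.4 and 43.5 CPM in Kelly with GSK126 for 5 days, against 34.4 and 32.8 CPM with DMSO. These 4 libraries did not overlap, and the log2 change was 0.37 ± 0.21 (edgeR adjusted p = 0.388). SPRY2 in LAN-1 at day 5 had 24.5 and 17.6 CPM with GSK126 and 24.4 and 18.5 CPM with DMSO, with a 95% interval of the log2 change from -0.56 to 0.57. SPRY1 (chr4:124317950-124324915 on GRCh37, plus strand) had 4.92 and 5.35 CPM in Kelly with GSK126 for 5 days and 7.47 and 5.47 CPM with DMSO. At day 2 in Kelly it had 3.67 and 5.74 CPM with GSK126 and 8.98 and 6.80 CPM with DMSO. Both Kelly GSK126 libraries stood below both DMSO libraries on each day. The day 2 log2 change of SPRY1 in Kelly was -0.71 ± 0.54 (edgeR adjusted p = 0.812). In LAN-1 its day 5 duplicates with GSK126 lay far apart at 0.6995 and 6.61 CPM, around the 4.87 and 4.202 CPM of DMSO. With DMSO, SPRY1 in LAN-1 held 7 and 5 counts at day 5 and 0 and 2 counts at day 2, a ratio of 6.93 (exact 95% counting interval 1.54 to 63.8). That change between days was not called (edgeR adjusted p = 0.335). The log2 change of SPRY1 between treatments at day 5 was -0.31 ± 0.57 in Kelly (adjusted p = 0.867) and -0.59 ± 0.73 in LAN-1 (adjusted p = 0.760).

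SPRED2 rose in LAN-1 at day 5, and SPRED1 was not called in either line. SPRED proteins bind neurofibromin, the RAS-inactivating product of NF1, and bring it to the membrane. SPRED2 spans chr2:65537985-65659771 on GRCh37, minus strand. RefSeq gives it a pair of promoter windows on GRCh38.p14, which differ in CG content and in the letters TGANTCA. That form, with N for any base, includes the AP-1 site, which has C or G in the middle. AP-1 is itself a target of ERK. The windows are chr2:65432550-65432849 and chr2:65366729-65367028, both on the minus strand, with GGAA, TTCC and TGANTCA in capitals:
SPRED2 upstream start: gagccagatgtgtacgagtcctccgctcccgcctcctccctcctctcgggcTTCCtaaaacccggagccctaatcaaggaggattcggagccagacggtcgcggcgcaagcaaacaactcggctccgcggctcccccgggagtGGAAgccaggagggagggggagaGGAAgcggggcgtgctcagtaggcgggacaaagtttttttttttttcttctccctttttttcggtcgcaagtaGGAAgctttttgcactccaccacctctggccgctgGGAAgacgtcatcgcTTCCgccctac
SPRED2 downstream start: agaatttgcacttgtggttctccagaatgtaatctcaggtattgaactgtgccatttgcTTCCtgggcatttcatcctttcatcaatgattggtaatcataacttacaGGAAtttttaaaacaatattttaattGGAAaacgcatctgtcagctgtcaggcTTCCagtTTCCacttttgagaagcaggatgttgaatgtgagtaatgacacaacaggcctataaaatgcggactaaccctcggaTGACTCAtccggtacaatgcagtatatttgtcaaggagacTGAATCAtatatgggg
The upstream window held 23 CG pairs and 6 copies of GGAA over both strands, and the downstream window held 4 CG pairs and 5 copies. TGANTCA, which reads alike on both strands, was found 2 times in the downstream window and 0 times in the upstream one. With any middle base, 5.75% of all promoters held it. The downstream copies were TGACTCA, an AP-1 site, and TGAATCA, which has A in the middle. The counts were made per gene, so the level from each start was not measured.

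In LAN-1, SPRED2 had 121.7 and 153.2 CPM with GSK126 for 5 days, against 104.5 and 87.4 CPM with DMSO. Its day 2 levels were 127.3 and 122.2 CPM with GSK126 and 116.5 and 95.1 CPM with DMSO. On each day both GSK126 libraries stood above both DMSO libraries. The log2 change at day 5 was 0.48 ± 0.14 (edgeR adjusted p = 0.0335). The call at day 5 was lost without LAN-1 GSK126 day 5 replicate 2, the smallest library (0.33, adjusted p = 0.430), without LAN-1 DMSO day 5 replicate 1 (0.62, 0.0702) or replicate 2 (0.37, 0.325), and with DESeq2 (0.51, 0.105). In Kelly at day 5 SPRED2 had 92.6 and 110.0 CPM with GSK126 and 94.2 and 93.6 CPM with DMSO, which overlapped, and its log2 change was 0.11 ± 0.14 (adjusted p = 0.778). The effect in Kelly minus that in LAN-1 was -0.37 ± 0.20 (adjusted p = 0.435), so a difference between the lines was not shown.

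SPRED1 (chr15:38545037-38649450 on GRCh37, plus strand) had 32.0 and 42.0 CPM in Kelly with GSK126 for 5 days and 35.9 and 34.7 CPM with DMSO. At day 2 in Kelly it had 35.5 and 35.7 CPM with GSK126 and 32.3 and 23.5 CPM with DMSO. SPRED1 in LAN-1 at day 5 had 42.7 and 38.6 CPM with GSK126 and 39.7 and 45.4 CPM with DMSO. The treatments overlapped at day 5 in both lines. Its log2 change at day 5 was 0.08 ± 0.22 in Kelly (edgeR adjusted p = 0.922) and -0.04 ± 0.21 in LAN-1 (adjusted p = 0.961), with 95% intervals of -0.35 to 0.51 and -0.47 to 0.38.

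DUSP4 rose in LAN-1 at day 5. It encodes a nuclear phosphatase of ERK and of the stress kinases JNK and p38. In LAN-1, DUSP4 had 46.9 and 58.4 CPM with GSK126 for 5 days, against 25.8 and 26.1 CPM with DMSO. At day 2 it had 44.1 and 37.1 CPM with GSK126 and 25.0 and 25.8 CPM with DMSO. All 4 LAN-1 libraries with GSK126 stood above all 4 with DMSO, and the 4 DMSO libraries lay between 25.0 and 26.1 CPM. The log2 change was 0.99 ± 0.23 at day 5 (edgeR adjusted p = 0.00281) and 0.67 ± 0.23 at day 2 (unadjusted p = 0.00376, adjusted p = 0.413). The day 5 call was lost without LAN-1 GSK126 day 5 replicate 2 (0.85, adjusted p = 0.0808) and without LAN-1 DMSO day 5 replicate 1 (0.98, 0.0702), with little change in its size.

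In Kelly, DUSP4 had 28.7 and 29.8 CPM with GSK126 for 5 days, against 23.2 and 24.9 CPM with DMSO. The levels at day 2 were 29.4 and 31.3 CPM with GSK126 and 26.1 and 32.2 CPM with DMSO. The treatments did not overlap at day 5 and overlapped at day 2, and the log2 changes were 0.28 ± 0.25 (edgeR adjusted p = 0.640) and 0.03 ± 0.23 (adjusted p = 0.995). The day 5 effect in Kelly minus that in LAN-1 was -0.71 ± 0.34 (unadjusted p = 0.0367, adjusted p = 0.334).

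DUSP6 rose in Kelly at day 5, from few counts. It encodes the cytoplasmic phosphatase that is selective for ERK, and its level is widely used as a readout of ERK activity. It lies at chr12:89741012-89746278 on GRCh37, minus strand, where an unnamed lncRNA on the opposite strand covers 1105 of its 3859 exon bases. The strand setting of the counting is not given in the sources used here, so reads of the pair cannot be told apart. The RefSeq promoter window of DUSP6, the other gene called in Kelly, is chr12:89352452-89352751 on GRCh38.p14, minus strand, with GGAA and TTCC in capitals:
DUSP6: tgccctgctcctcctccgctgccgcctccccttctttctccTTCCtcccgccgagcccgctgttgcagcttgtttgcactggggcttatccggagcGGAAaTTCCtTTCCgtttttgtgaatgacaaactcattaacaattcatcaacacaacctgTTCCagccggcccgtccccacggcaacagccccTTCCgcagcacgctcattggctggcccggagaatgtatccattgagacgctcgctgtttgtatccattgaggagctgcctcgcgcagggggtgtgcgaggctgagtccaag
It held 6 copies of GGAA over both strands, 0 of CCGGAA and 0 of TGANTCA, and 19 CG pairs.

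In Kelly, DUSP6 had 13.9 and 16.0 CPM with GSK126 for 5 days (17 and 21 counts), against 2.99 and 7.90 CPM with DMSO (4 and 13 counts). Day 2 gave 7.35 and 14.0 CPM with GSK126 and 8.98 and 10.5 CPM with DMSO. The treatments did not overlap at day 5, and at day 2 they did. The log2 change at day 5 was 1.39 ± 0.43 (edgeR adjusted p = 0.0394), and at day 2 it was 0.10 ± 0.40 (adjusted p = 0.984). The day 5 call was lost without Kelly DMSO day 5 replicate 1 (0.91, adjusted p = 0.394), without Kelly GSK126 day 5 replicate 1 (1.48, 0.107) or replicate 2 (1.27, 0.263), with no filter on low counts (1.36, 0.0533) and with DESeq2 (1.42, 0.453). Without Kelly DMSO day 5 replicate 2 the change was 2.29 (adjusted p = 0.0359). Between day 5 and day 2 the effect differed by 1.28 ± 0.60 (adjusted p = 0.612).

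DUSP6 in LAN-1 had 5.60 and 7.71 CPM with GSK126 for 5 days, against 3.48 and 3.36 CPM with DMSO. At day 2 it had 0.816 and 2.32 CPM with GSK126 and 5.76 and 2.72 CPM with DMSO. The GSK126 libraries were the higher ones at day 5 and the lower ones at day 2, without overlap on either day. The log2 change was 0.89 ± 0.62 at day 5 (edgeR adjusted p = 0.502) and -1.38 ± 0.78 at day 2 (adjusted p = 0.824). DUSP5, a nuclear ERK phosphatase (chr10:112257665-112271291 on GRCh37, plus strand), was not tested. Its counts in Kelly at day 5 were 6 and 5 with GSK126 and 5 and 7 with DMSO, a ratio of 1.08 (exact 95% counting interval 0.432 to 2.68). In LAN-1 at day 5 they were 5 and 3 with GSK126 and 3 and 2 with DMSO, a ratio of 1.80 (0.519 to 6.99).

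**Figure D2:**
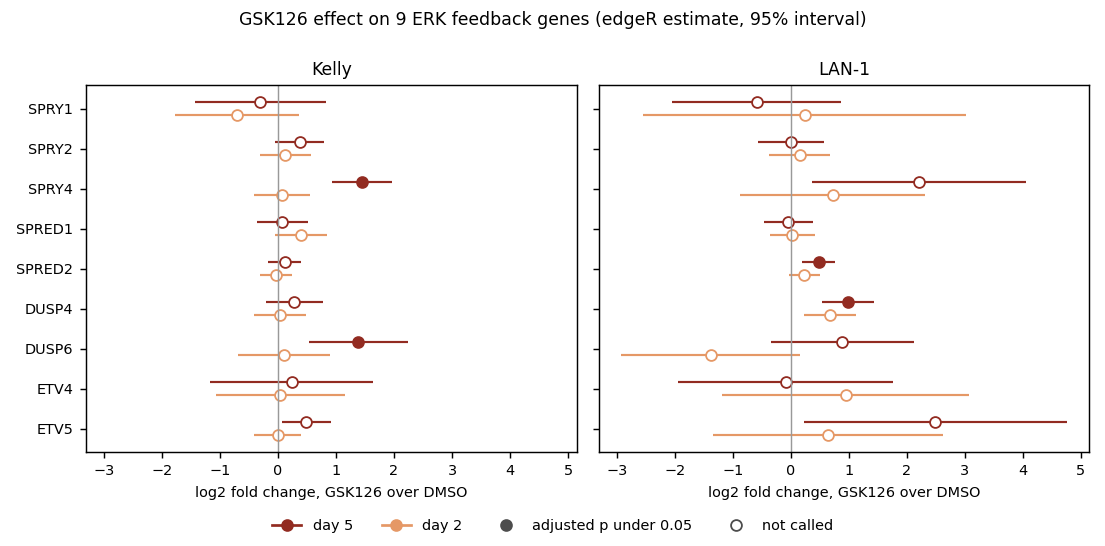
Log2 fold change of GSK126 over DMSO (horizontal axis) with its 95% interval from edgeR for the 9 tested genes, in Kelly (left) and LAN-1 (right), at day 5 (dark) and day 2 (light), with filled points for an adjusted p under 0.05. Filled points stand at day 5 for SPRY4 (1.44) and DUSP6 (1.39) in Kelly and for SPRED2 (0.48) and DUSP4 (0.99) in LAN-1.

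ETV5 and ETV4 were not called in any GSK126 comparison. ETV5 (chr3:185764103-185828107 on GRCh37, minus strand), which has been placed downstream of ALK in neuroblastoma, had 43.4 and 46.6 CPM in Kelly with GSK126 for 5 days, against 29.9 and 34.0 CPM with DMSO. At day 2 it had 40.4 and 37.01 CPM with GSK126 and 36.8 and 40.2 CPM with DMSO. Both day 5 GSK126 libraries stood above the other 6 Kelly libraries. The day 5 log2 change was 0.49 ± 0.21 (unadjusted p = 0.0241, edgeR adjusted p = 0.209). In LAN-1 it had 4 and 2 counts with GSK126 for 5 days and 1 and 0 counts with DMSO, a ratio of 6.74 with an exact 95% counting interval of 0.818 to 310.1 (adjusted p = 0.245). ETV4 (chr17:41605212-41656988 on GRCh37, minus strand) had 3.28 and 4.58 CPM in Kelly with GSK126 for 5 days and 2.99 and 3.65 CPM with DMSO. DHX8, on the opposite strand, shares 68 of its 3515 exon bases. In LAN-1 at day 5 ETV4 had 2.10 and 2.20 CPM with GSK126 and 2.79 and 1.68 CPM with DMSO. The treatments overlapped in both lines, and the log2 changes were 0.23 ± 0.71 in Kelly (adjusted p = 0.930) and -0.09 ± 0.93 in LAN-1 (adjusted p = 0.988).

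Averaged over both lines and both days, the GSK126 effect was called for SPRY4 and DUSP4. These were 2 of 9 genes, with 6.47% of all tested genes called in either direction, 4.32% higher and 2.16% lower. The averaged log2 change was 1.11 ± 0.32 for SPRY4 (edgeR adjusted p = 0.0197) and 0.49 ± 0.12 for DUSP4 (adjusted p = 0.00229). DUSP4 was called without each of the 16 libraries in turn. SPRY4 was not called without LAN-1 GSK126 day 5 replicate 1 (0.91, adjusted p = 0.208), LAN-1 GSK126 day 2 replicate 1 (1.05, 0.100), LAN-1 DMSO day 5 replicate 1 (1.07, 0.0691) or LAN-1 DMSO day 2 replicate 2 (0.95, 0.0749), nor with DESeq2 (1.14, 0.108). SPRED2 had an averaged change of 0.20 ± 0.07 (adjusted p = 0.0705), which was called without LAN-1 GSK126 day 5 replicate 1 (0.24, 0.0201) or LAN-1 DMSO day 2 replicate 1 (0.24, 0.0410).

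No difference of the GSK126 effect between lines or between days was called by edgeR for any of the 9 genes. DESeq2 called none either, but it gave some of them no adjusted p and could not call those. They included SPRY4, DUSP4, DUSP6 and ETV5 for the line difference at day 5, and SPRY4, DUSP4 and DUSP6 for the day difference in Kelly. EdgeR called the line difference for 1.85% of all tested genes at day 5 and 0.00843% at day 2. It called the difference between days for 0.379% in Kelly and 0.539% in LAN-1. At an unadjusted p under 0.05, the line difference held 1 of the 9 at day 5 and 0 at day 2, beside 13.1% and 5.22% of all tested genes. The day difference held 2 of the 9 in Kelly and 1 in LAN-1 at that threshold, beside 7.55% and 10.0%. So neither SPRY4 nor DUSP6 was shown to respond in Kelly alone, nor DUSP4 or SPRED2 in LAN-1 alone. Between day 5 and day 2 in DMSO, 0 of 9 were called by edgeR in either line, with 0.438% of all genes called in each line. At an unadjusted edgeR p under 0.05 there was 1 of the 9 in each line, beside 7.70% of all genes in Kelly and 7.35% in LAN-1. DESeq2 also called 0 between these days, but in Kelly it gave no adjusted p for genes that included SPRY4, DUSP4 and DUSP6.

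More of these genes differed between the lines than between the treatments. Over the DMSO libraries of both days, 6 of 9 genes were higher in Kelly than in LAN-1 and 1 was lower, with 67.7% of all tested genes called, 34.2% higher and 33.5% lower. That share of 7 in 9 is near the share over all genes. Of the genes higher in Kelly, SPRY1, SPRY4, DUSP6, ETV4 and ETV5 passed the filter on low counts only through Kelly libraries. Their LAN-1 levels lay below its cutoff of 7.17 CPM, but for 1 DUSP6 library at 7.71 CPM. So the count of genes higher in Kelly was partly set by the filter, and no lean of the set toward Kelly is drawn from it. ETV5 had 29.9 to 40.2 CPM in Kelly and 0 to 1.36 CPM in LAN-1 (4 DMSO libraries each), a ratio of summed counts of 50.03 (exact 95% counting interval 19.2 to 185.4) and a log2 difference of 5.63 ± 0.37 (edgeR adjusted p = 9.52e-29). SPRY4 had 14.0 to 29.6 CPM in Kelly and 0.679 to 2.56 CPM in LAN-1, a ratio of 16.8 (7.93 to 42.8) and a log2 difference of 4.06 ± 0.39 (adjusted p = 1.31e-17). For these 2 genes and SPRY2, no Kelly library overlapped any LAN-1 library, with or without GSK126. The share of all tested genes that separated the lines in this way was not counted, so the separation is not shown to be particular to them.

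Smaller differences between the lines were called for 5 other genes. The log2 difference, Kelly over LAN-1 in DMSO, was 1.92 ± 0.52 for SPRY1 (edgeR adjusted p = 7.15e-04) and 0.57 ± 0.17 for SPRY2 (adjusted p = 0.00287). It was 1.45 ± 0.59 for ETV4 (adjusted p = 0.0236) and 0.95 ± 0.39 for DUSP6 (adjusted p = 0.0263). The SPRY1 difference was 3.44 without LAN-1 DMSO day 2 replicate 2 and 1.25 with a prior count of 2, and it was called in both. SPRED1 was the gene with the opposite sign, at -0.51 ± 0.15 (adjusted p = 0.00184). SPRED2 and DUSP4 were at about the same level in the lines, with differences of -0.08 ± 0.10 (adjusted p = 0.496) and 0.06 ± 0.17 (adjusted p = 0.773), and 95% intervals of -0.28 to 0.12 and -0.29 to 0.40. ETV4 and DUSP6 were not called with DESeq2 (adjusted p = 0.0994 and 0.0979) or with a replicate block (adjusted p = 0.192 and 0.308, with the DUSP6 difference at 0.58), and the ETV4 difference was 0.93 with a prior count of 2. ETV4 was also lost without Kelly DMSO day 5 replicate 2 (0.0849), LAN-1 DMSO day 2 replicate 2 (0.0812) or LAN-1 DMSO day 5 replicate 2 (0.0649). DUSP6 was lost without Kelly DMSO day 5 replicate 2 (a difference of 0.50, adjusted p = 0.425), Kelly DMSO day 2 replicate 2 (0.0770), LAN-1 DMSO day 5 replicate 1 (0.0618) or replicate 2 (0.0553), or LAN-1 DMSO day 2 replicate 2 (0.108).

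Per kilobase of exon, SPRED2 was the highest of the 10 genes in each of the 8 groups. In DMSO it averaged 17.4 CPM per kilobase in Kelly and 18.3 in LAN-1 (4 libraries each). In Kelly it was followed by SPRY2 at 9.89, ETV5 at 6.10, SPRED1 at 4.08, DUSP4 at 3.65 and SPRY4 at 3.26 CPM per kilobase, and ETV4 was the lowest at 1.15. In LAN-1 the order after SPRED2 was SPRY2 at 6.61, SPRED1 at 5.72 and DUSP4 at 3.53 CPM per kilobase. There SPRY4 at 0.182 and ETV5 at 0.117 CPM per kilobase came last. In Kelly, SPRED1 and DUSP4 differed by no more than the larger SD of the pair (0.722 CPM per kilobase), and so did DUSP4 and SPRY4 (1.13). The same held in Kelly for DUSP6 and DUSP5, DUSP5 and SPRY1, and SPRY1 and ETV4. In LAN-1 it held for those same 3 pairs and for SPRY4 and ETV5. Every other pair of neighbours in either line differed by more than that SD. With GSK126 for 5 days, DUSP4 in LAN-1 averaged 7.24 ± 1.12 CPM per kilobase, beside 6.55 ± 1.51 for SPRY2 (SD, n = 2 each), a gap within the larger SD. With DMSO for 5 days DUSP4 was the fourth, at 3.56.

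**Figure D3:**
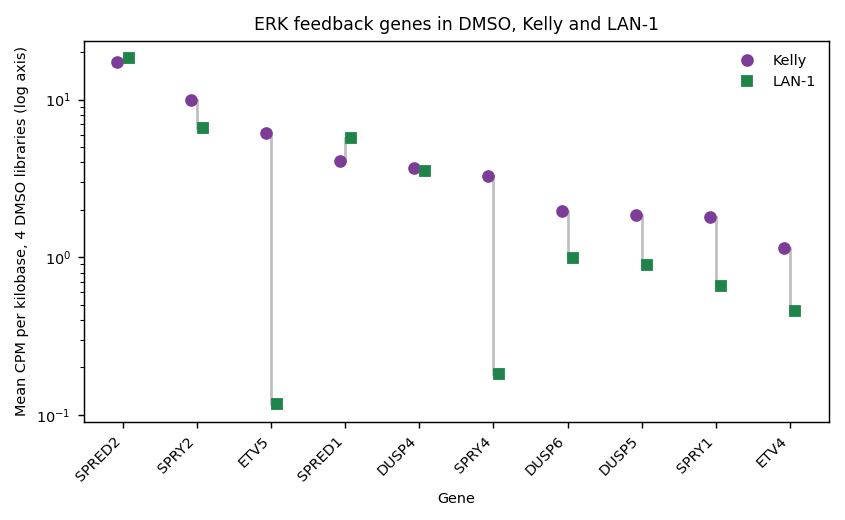
Mean level in CPM per kilobase of exon (vertical log axis) of the 10 genes over 4 DMSO libraries in Kelly (circles) and LAN-1 (squares), ordered by the level in Kelly. ETV5 (6.10 against 0.117) and SPRY4 (3.26 against 0.182) have the longest lines between Kelly and LAN-1.

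Across the 8 Kelly libraries, the genes whose log2 CPM most resembled SPRY4 among 8141 ranked were TEAD1 (Pearson r = 0.98), PIGM (0.977) and DGKI (0.963). Across the 8 LAN-1 libraries, those nearest DUSP4 among 7911 ranked were WLS (0.985), PRPH (0.982) and COL6A1 (0.977). Within the members, SPRY4 and ETV5 had r = 0.863 in Kelly and 0.658 in LAN-1, and SPRED2 and DUSP4 had r = 0.332 in Kelly and 0.849 in LAN-1. For SPRY4 and DUSP6 it was 0.645 in Kelly and 0.0939 in LAN-1, for SPRY4 and DUSP4 0.575 and 0.686, and for SPRY4 and SPRY2 0.566 and 0.419. These values describe 8 libraries that fall into 4 groups of duplicates and share the treatment, and no test was made on them. The LAN-1 values with SPRY4 rest on 1 to 7 counts of SPRY4 in a library. ETV5 held 0 to 4 counts there and DUSP6 1 to 9, so counting error is larger in these values than in those of Kelly.

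The wider pathway was described through 5 other lists. Of 9 tested relatives in the same families, 2 rose in Kelly at day 5 and 0 in LAN-1, beside 3.30% and 2.45% of all tested genes called higher. DUSP10, a phosphatase of p38 and JNK, averaged 46.7 ± 2.33 CPM with GSK126 and 15.6 ± 6.26 CPM with DMSO in Kelly at day 5 (SD, n = 2 each, log2 change 1.53 ± 0.25, edgeR adjusted p = 2.37e-06). ETV1, the remaining PEA3 factor, averaged 83.1 ± 12.1 CPM with GSK126 and 48.2 ± 10.1 CPM with DMSO (0.77 ± 0.18, adjusted p = 0.00196). DUSP10 in LAN-1 at day 5 averaged 38.8 ± 4.38 CPM with GSK126 and 24.2 ± 3.75 CPM with DMSO, and the Kelly minus LAN-1 difference of its effect was not called (0.87, adjusted p = 0.255). The median log2 change over the 9 relatives was 0.06 in Kelly and 0.58 in LAN-1.

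Of 14 other tested ERK-responsive genes, such as EGR1, 1 rose in Kelly at day 5 and 0 in LAN-1, with median changes of 0.01 and 0.09. Among all tested genes 3.30% were called higher in Kelly and 2.45% in LAN-1. PHLDA1, a pleckstrin-domain protein induced by ERK, averaged 32.6 ± 8.34 CPM with GSK126 and 7.83 ± 1.61 CPM with DMSO in Kelly at day 5 (SD, n = 2 each, log2 change 2.06 ± 0.31, edgeR adjusted p = 3.22e-07). In LAN-1 it averaged 31.3 ± 2.21 CPM with GSK126 and 31.7 ± 1.51 CPM with DMSO. The difference of the effect between the lines was 2.06 (adjusted p = 4.23e-04), so the response of PHLDA1 was larger in Kelly, where it reached the level that LAN-1 held with either treatment. Of 16 other negative regulators, 0 were called in Kelly by edgeR and 1 rose in LAN-1, beside 4.90% and 3.66% of all tested genes called in either direction. At an unadjusted p under 0.05 there were 5 of the 16 in Kelly, beside 16.5% of all tested genes. The regulator that rose in LAN-1 was SH2B3, the adaptor LNK, at 45.4 ± 2.84 CPM with GSK126 and 24.3 ± 4.84 CPM with DMSO (0.90 ± 0.24, adjusted p = 0.0158).

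Among 27 tested genes of the RAS, RAF, MEK and ERK cascade and its adaptors, 1 rose and 2 fell in Kelly at day 5, and 0 rose and 2 fell in LAN-1. Of all tested genes, 4.90% were called in either direction in Kelly and 3.66% in LAN-1. RPS6KA2, a kinase activated by ERK, averaged 72.3 ± 3.66 CPM with GSK126 and 46.2 ± 6.08 CPM with DMSO in Kelly (SD, n = 2 each, 0.64 ± 0.18, edgeR adjusted p = 0.0142). The adaptors GAB2 (98.01 ± 1.82 against 151.3 ± 3.59 CPM, adjusted p = 4.77e-04) and SHC1 (209.1 ± 14.9 against 273.9 ± 0.506 CPM, adjusted p = 0.0122) were lower with GSK126 than with DMSO in Kelly. NRAS, a RAS protein, averaged 228.3 ± 36.2 CPM with GSK126 and 324.6 ± 2.08 CPM with DMSO in LAN-1 at day 5 (-0.49 ± 0.11, adjusted p = 0.00153).

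Of 16 tested receptor tyrosine kinases that signal to RAS, 5 were called higher with GSK126 than with DMSO in Kelly at day 5. In LAN-1 6 were called higher at day 5 and 1 at day 2, and 0 were called lower in either line. Of all tested genes, 4.90%, 3.66% and 0.152% were called in these 3 comparisons in either direction. In DMSO alone, 2 of the 16 were called lower at day 5 than at day 2 in each line, with 0.438% of all genes called. RET, the receptor for GDNF, averaged 152.4 ± 2.07 CPM with GSK126 and 84.4 ± 7.67 CPM with DMSO in LAN-1 at day 5 (SD, n = 2 each, log2 change 0.85 ± 0.14, edgeR adjusted p = 5.89e-06). EGFR, the receptor for EGF, averaged 175.3 ± 6.34 CPM with GSK126 and 112.0 ± 0.839 CPM with DMSO there (0.65 ± 0.13, adjusted p = 3.73e-04). PDGFRA, a PDGF receptor, averaged 26.6 ± 3.00 CPM with GSK126 and 3.29 ± 3.80 CPM with DMSO in Kelly at day 5. The median log2 change over the 16 receptors was 0.37 in Kelly and 0.49 in LAN-1, beside 0.28 and 0.48 over the 9 ERK feedback genes.

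**Figure D4:**
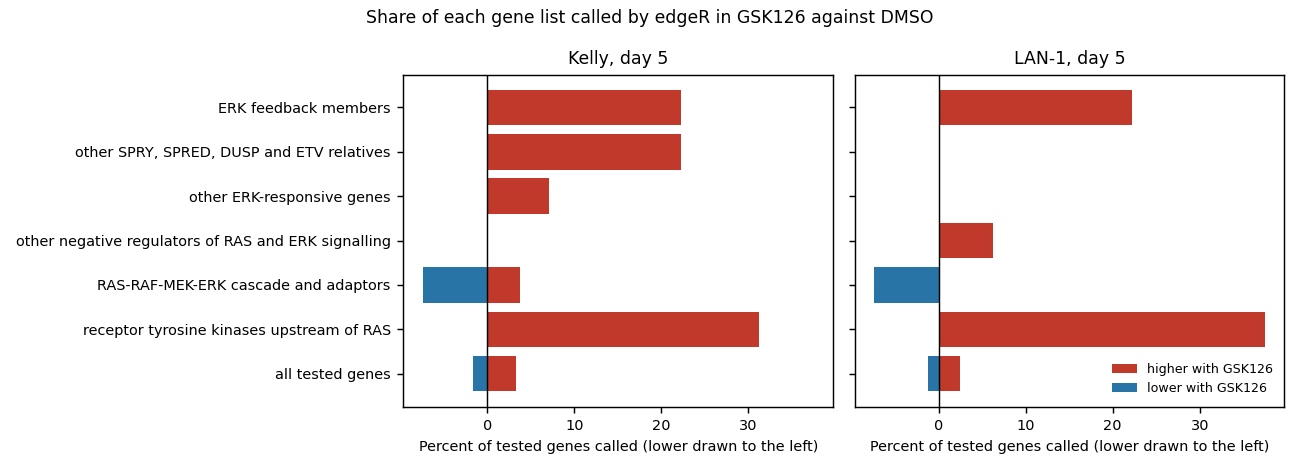
Percent of the tested genes of each list (rows) called by edgeR higher (red, to the right) or lower (blue, to the left) with GSK126 than with DMSO at day 5, in Kelly (left) and LAN-1 (right). The bars stand for 2 of 9 ERK feedback genes in each line and for 5 and 6 of 16 receptors, beside 3.30% and 2.45% of all tested genes called higher.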

How the data were processed

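RNA-seq was analysed from 16 libraries in 8 groups of 2, assigned from the labels. The authors deposited raw whole-read counts per gene symbol. FastQC, TopHat2, featureCounts and GRCh37 (hg19) are named per the submitters' processing notes, and the versions, the annotation and the strand setting are not given in the sources used here. Counts were tested with edgeR 4.0.16 in R 4.3.3: filterByExpr at a minimum count of 10 (a cutoff of 7.17 CPM), TMM factors of 0.9774 to 1.026, and a robust quasi-likelihood fit with 1 mean per group and 8 residual degrees of freedom (common biological coefficient of variation 5.31%). P-values were adjusted by Benjamini-Hochberg over 11863 genes. Log2 changes are estimate ± SE. Ratios of summed counts, given mainly for genes with few counts in a group, have an exact 95% interval. That interval covers counting error only, since the labels name no molecular identifiers. The 4 rows with a repeated symbol (0.00568% of counts) were kept as they stood and are not named. The edgeR script was tested on simulated counts with known changes.

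The members, the gene lists and the tests were chosen with earlier results of these data known. Named genes were all members, EZH2 and MYCN, from each other list up to 4 genes called in any GSK126 comparison by smallest adjusted p, and the 3 genes of at least 20 CPM that correlated best with the member of smallest adjusted p at day 5 in each line. Gene positions are GENCODE 44 on GRCh37, and promoters are RefSeq on GRCh38.p14. Alternatives were DESeq2 1.42.0, RLE factors, no filter on low counts, a prior count of 2, a replicate block, fits of 1 line alone and each library left out in turn. A further gene of the neuroblastoma marker list was left out of its sums and is not reported here.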

Additional observations from a re-analysis of the deposited data

Results flagged for a closer look

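No ERK feedback gene itself was singled out by a difference of effects between lines or days, but MYCN and 6 genes named by rule from the neighbouring lists were, each by an edgeR test of the difference itself. Those lists held 7 such calls in all. For MYCN the GSK126 effect at day 5 in Kelly minus that in LAN-1 was -0.53 on the log2 scale (adjusted p = 0.00118). For PHLDA1 this difference was 2.06 on the log2 scale (adjusted p = 4.23e-04). For PDGFRA the same difference was 2.18 (adjusted p = 0.00619). For INSR, the insulin receptor, it was 7.35 (adjusted p = 1.18e-08). INSR held 46 counts with GSK126 and 0 with DMSO in Kelly at day 5, at least 18.1-fold higher against a floor of 3 counts over the group, so its fitted value depends on the prior count. In LAN-1 it held 402 counts with GSK126 and 370 with DMSO at day 5, a ratio of 1.22 (exact 95% counting interval 1.06 to 1.41).

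The effect at day 5 minus that at day 2 was 0.96 for RET in Kelly (adjusted p = 4.61e-05), 0.83 for EGFR in LAN-1 (adjusted p = 0.00404) and -0.55 for NRAS in LAN-1 (adjusted p = 0.0485). In Kelly RET averaged 219.2 ± 20.4 CPM with GSK126 and 91.8 ± 0.867 CPM with DMSO at day 5, and 237.9 ± 11.8 CPM with GSK126 and 193.9 ± 9.95 CPM with DMSO at day 2 (SD, n = 2 each). EGFR in LAN-1 averaged 175.3 ± 6.34 CPM with GSK126 and 112.0 ± 0.839 CPM with DMSO at day 5, and 166.3 ± 4.38 CPM with GSK126 and 187.4 ± 23.0 CPM with DMSO at day 2.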

How the results depend on the processing

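With a median total of 1394475.5 counts, genes of a few counts (SPRY4 and ETV5 in LAN-1, DUSP6, ETV4, DUSP5) could show only large changes. At day 5 DESeq2 called 1 member for Kelly and 0 for LAN-1. In LAN-1 at day 5 SPRED2 alone of the tested members had a DESeq2 adjusted p. The other tested members, DUSP4 among them, could not be called by DESeq2 there. DESeq2 called 1 in the average over lines and days, and edgeR called 1 in Kelly at day 5 with no filter on low counts. With a library left out, 1 to 2 members were called in Kelly and 0 to 2 in LAN-1, both at day 5, 1 to 3 in the average, and 0 to 1 for day 5 minus day 2 in Kelly. SPRY2 in LAN-1 at day 5 was -0.010 with the replicate block, and SPRY4 in Kelly minus LAN-1 at day 5 was 0.11 with a prior count of 2. The cause was not tested.

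Changes that took both signs as libraries were left out ran, in Kelly at day 5, from -0.15 to 0.26 for SPRED1, -0.028 to 0.23 for SPRED2 and -0.038 to 0.44 for ETV4. In LAN-1 at day 5 they ran from -2.56 to 0.52 for SPRY1, -0.30 to 0.23 for SPRY2, -0.15 to 0.044 for SPRED1 and -0.37 to 0.33 for ETV4. In Kelly at day 2 they ran from -0.17 to 0.25 for SPRY4, -0.084 to 0.21 for DUSP4 and -0.43 to 0.50 for DUSP6. They ran from -1.11 to 0.012 for SPRY4 in Kelly minus LAN-1 at day 5 and from -0.033 to 0.12 for DUSP4 in Kelly against LAN-1.

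The replicate numbers gave no sign of pairing the libraries: same-numbered deviations correlated at -0.187 to 0.15 in Kelly and -0.2 to 0.144 in LAN-1. At this depth such values cannot exclude that same-numbered libraries were handled together. The replicate block called 1 member (SPRY4) for day 5 minus day 2 in Kelly and 0 without it. It called 8 genes of all tested in Kelly at day 2, against 21 without it. Over all genes, DESeq2 called 163 in Kelly and 154 in LAN-1 at day 5 (edgeR 581 and 434), 3 and 2 at day 2 (21 and 18), 289 in the average (768) and 73 and 0 for the line difference at day 5 and day 2 (220 and 1; 2 with no filter). It called 15 and 28 for the day difference of the effect in Kelly and LAN-1 (45 and 64) and 15 and 22 for the days in DMSO (52 and 52).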
